A study of Bos taurus with 8 samples.

Results

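The genes described here carry sodium, urea and water across the wall of the rumen. They were chosen by name: *ATP1B1*, *ATP1B3* and *FXYD3* belong to the sodium pump, *SLC14A1* encodes the urea transporter UT-B, and *AQP1*, *AQP3* and *AQP7* encode water channels. Of the 7 genes, 5 had a probe on the arrays when probes were named through the RefSeq accession in the scanner output, and each of the 5 had a single probe. No probe was matched to *ATP1B1* or *AQP7*, and both genes are therefore absent from the results. The 5 probes are among 21475 probes in all, of which 8297 were named and stood for 7788 genes.

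RNA came from papillae of the ventral sac of the rumen of 4 ruminally cannulated, lactating Holstein cows, 84 ± 25 d in milk at the start. Each cow was fed a low-concentrate diet (LC, concentrate at 40% of dry matter) in one period and a high-concentrate diet (HC, 70%) in the other, and all were sampled on d 21 of the period, 4 h after the morning feeding. Cows 1 and 2 received LC first and HC second, and cows 3 and 4 the reverse, which gave 8 single-colour arrays, 4 per diet. The ages of the cows were not given in the sources used here. A papilla is a mixed tissue, with a squamous epithelium over a core of vessels, connective tissue and blood.

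The sodium pump is built from a catalytic alpha subunit and a glycosylated beta subunit, and small FXYD proteins bind to it and tune its affinity for ions. In the rumen epithelium the pump lies in the membranes of the deeper cell layers and drives the uptake of sodium that enters from the lumen. UT-B lets urea from the blood pass into the rumen, where microbes use its nitrogen. Aquaporins let water through membranes, and AQP3 and AQP7 also pass glycerol and are called aquaglyceroporins.

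Signals were log2 intensities, quantile-normalized between arrays, and each log2 fold change gives HC relative to LC, so that a negative value is a lower signal on HC. A limma model with diet, period and the interaction was run on every probe. It had no term for cow. The model and the exact permutation tests below thus treated the 2 arrays of a cow as independent. A difference was called at a 1.5-fold change or more together with an unadjusted p under 0.05, the definition used in the study. The Benjamini-Hochberg adjustment covered all 21475 probes. Levels of different probes cannot be set against each other, because probes differ in how strongly they bind. The 4 arrays of each period lay on 1 slide, and slide and period therefore cannot be told apart. In the deposited table of normalized values, the columns of cows 1 and 2 followed the scanner output of the other of these cows on both diets (r = 0.999 across probes, where the equally named array gave 0.994 to 0.995). Cow numbers below are those of the scanner output, and for these cows they could be exchanged, which leaves the comparison of diets as it is.

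Markers of the labelled tissue were strongly present. Of 20 markers of squamous epithelium, 11 had a probe, and 10 of these were well above background on all 8 arrays by the scanner software's own test, with *TP63* on none. The log2 of their summed signals was 19.40 to 19.84 in the LC group and 19.54 to 19.81 in the HC group. In such sums the brightest probes count most. Of 41 markers of endothelium, red blood cells, fibroblasts and smooth muscle, adipocytes and leukocytes that had a probe, 1 passed both thresholds for diet, against 0.922% of all probes. It was the fatty acid carrier *FABP4*, with LC signals of 12.55, 13.88, 15.20 and 15.11 and HC signals of 15.10, 14.77, 15.43 and 15.02 in cows 1 to 4. HC minus LC was 2.55 in cow 1, 0.89 in cow 2, 0.23 in cow 3 and -0.09 in cow 4, so the difference lay mainly in cows 1 and 2. The *FABP4* log2 fold change was 0.90 (SE 0.30; limma, unadjusted p = 0.0222 and adjusted p = 1.00), and the gene also passed both thresholds for period (0.83) and for the interaction (-1.12).

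All 5 measured genes gave signals far over background on both diets. Every one of their 16 spots (2 per array) was well above background, and none was saturated. Before normalization, the mean intensity of the pump and urea transporter probes lay between 33329 and 107324, that of *AQP3* between 35239 and 69297 and that of *AQP1* between 2627 and 4666, over a local background of 28.75 to 34.

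The diet left all 5 genes short of the thresholds. In limma 0 of 5 passed both, against 0.922% of all probes and 0.274% of the 16030 probes that passed the background test on all 8 arrays. An unadjusted p under 0.05 alone was reached by 0 of 5, against 3.65% and 2.61%, so both counts were near the background. The LC and HC arrays overlapped for 5 of 5 genes, and 1.63% of the 16030 probes had groups that did not overlap. The adjusted p was 1.00 for each gene. The intervals of the differences carry more than the p values: the 95% interval of each fold change, from limma's moderated SE, lay within 1.5-fold in either direction for 5 of 5 genes, against 68.1% of all probes and 79% of the 16030 probes. Intervals were computed in this model only, and the statement does not extend to the others. Without moderation of the variance, the SE was 0.21 for *SLC14A1* and 0.17 for *AQP1*, against 0.19 and 0.15 here. The log2 fold change was positive in 3 of the genes and negative in 2, with a median of 0.02, beside a median near 0 over all probes.

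**Figure D1:**
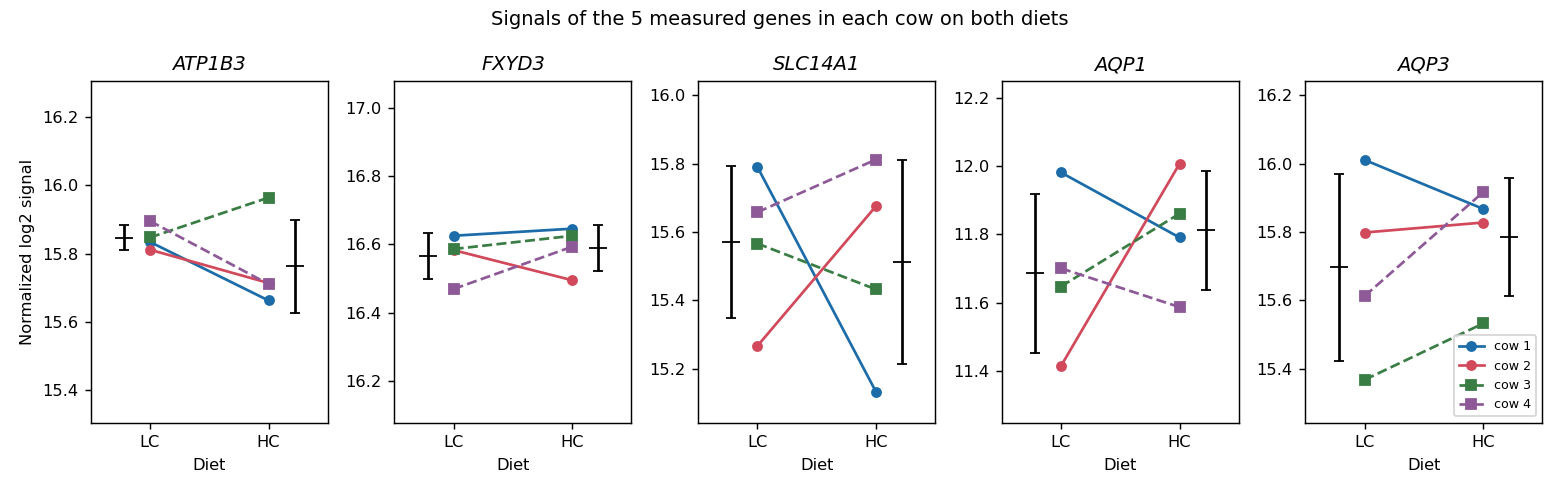
Normalized log2 signal (vertical axis, 1 log2 unit high in each panel) of the 5 measured genes in each cow on LC and HC. Lines join the 2 arrays of a cow, solid with circles for cows 1 and 2 (LC in period 1) and dashed with squares for cows 3 and 4 (LC in period 2), and black bars give the mean ± SD of 4 arrays. The groups overlap in every panel, *FXYD3* spans the least (0.18) and *SLC14A1* the most (0.68).

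The beta subunit gene *ATP1B3* (NM_001035393) codes for the beta-3 chain, which the alpha subunit needs for folding and for its way to the membrane. Its LC signals were 15.83, 15.81, 15.85 and 15.90 in cows 1 to 4, and its HC signals 15.66, 15.71, 15.96 and 15.71 in the same order. The signal was lower on HC in 3 of 4 cows and higher by 0.12 in cow 3, whose HC array lay above all LC arrays, so the groups overlapped. The means were 15.85 ± 0.04 (SD, n = 4) on LC and 15.76 ± 0.14 (SD, n = 4) on HC.

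The *ATP1B3* log2 fold change was -0.08 (SE 0.09, 95% interval -0.31 to 0.14). The unadjusted limma p was 0.403 and the exact two-sided permutation test gave p = 0.257, where 0.0286 is the smallest that 4 arrays against 4 allow. The direction was negative in each of the 17 other settings tried, with values from -0.15 to -0.02. With normexp background correction it was -0.11 (SE 0.04; limma, unadjusted p = 0.037), which is far from the fold threshold. The spots of this probe differed by up to 0.27 within an array. The resulting error of a 2-spot mean was an SD of 0.0868 (log2), close to the SD of 0.0932 between arrays of the same diet and period.

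*FXYD3* (NM_001079646), also known as MAT-8, encodes a small membrane protein that binds the pump and is abundant in epithelia. The LC signals were 16.63, 16.58, 16.59 and 16.47 in cows 1 to 4, and the HC signals 16.65, 16.50, 16.63 and 16.59. All 8 values lay within 0.18 of each other, and the groups overlapped almost wholly. Of the 16030 probes that passed the background test throughout, 0.774% spanned a smaller range, and the median range of the 16030 was 0.59. Those probes were of any brightness, and no share was computed among probes as bright as *FXYD3*.

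For *FXYD3* the means were 16.57 ± 0.07 (SD, n = 4) on LC and 16.59 ± 0.07 (SD, n = 4) on HC. The log2 fold change was 0.02 (SE 0.09, 95% interval -0.19 to 0.23; limma, unadjusted p = 0.793; exact permutation test, p = 0.543). In 3 of 4 cows HC exceeded LC, by 0.02 to 0.12, and in cow 2 the difference was -0.09. Its sign turned with 75th percentile normalization, to -0.021, and on leaving out LC in cow 4 or HC in cow 1.

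The urea transporter gene *SLC14A1* (NM_001008666) varied most from array to array and showed no common direction in the cows. On LC its signals were 15.79, 15.27, 15.57 and 15.66 in cows 1 to 4, and on HC they were 15.13, 15.67, 15.43 and 15.81. The HC minus LC difference was -0.66 in cow 1, 0.41 in cow 2, -0.13 in cow 3 and 0.15 in cow 4. Both the lowest and the highest of the 8 values were on HC.

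Its means were 15.57 ± 0.22 (SD, n = 4) on LC and 15.51 ± 0.30 (SD, n = 4) on HC, and the *SLC14A1* log2 fold change was -0.06 (SE 0.19, 95% interval -0.51 to 0.40). Limma gave an unadjusted p of 0.769, and the exact permutation test p = 0.800. On leaving out 1 array the sign turned in 3 cases, to 0.07 for LC in cow 1, 0.08 for HC in cow 1 and 0.04 for HC in cow 3. The arrays differed more than the spots did: a 2-spot mean had an SD of 0.0716 (log2), against 0.300 between arrays of the same diet and period.

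**Figure D2:**
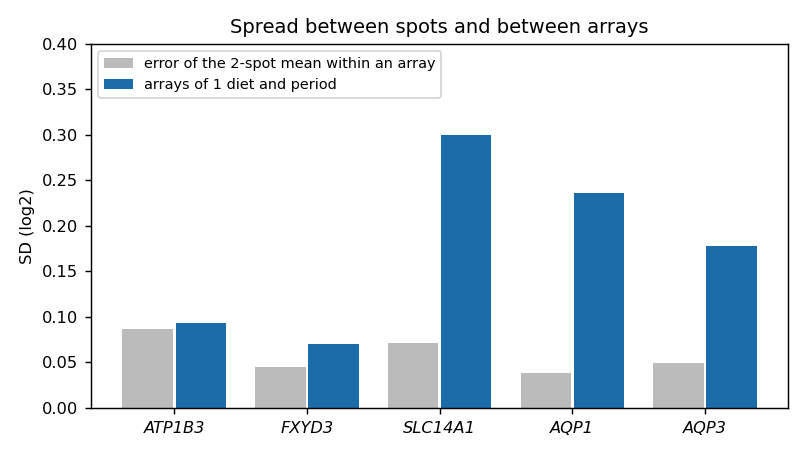
SD on the log2 scale (vertical axis, from 0) of the mean of the 2 spots of a probe within an array (grey) and between arrays of the same diet and period (blue, 4 residual degrees of freedom). For *ATP1B3* the bars are of nearly equal height (0.0868 and 0.0932), while for *SLC14A1*, *AQP1* and *AQP3* the arrays differ much more than the spots.

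UT-B is also a protein of red blood cells and of vessels, so markers of these cells are given beside it. Of 12 red blood cell markers, 6 had a probe and 3 (*HBA*, *HBB* and *AHSP*) were well above background on all 8 arrays, while *SLC4A1*, the anion exchanger of red blood cells, was so on none. The log2 of the summed signals of the 3 was 13.34, 12.75, 12.76 and 11.85 on LC and 13.17, 12.22, 11.63 and 12.42 on HC in cows 1 to 4. This sum is close to *HBA* alone, whose mean log2 signal was 12.47, beside 4.38 for *HBB* and 7.30 for *AHSP*. The log2 fold change was -0.34 for *HBA*, 0.05 for *HBB* and 0.17 for *AHSP*. In cow 1, which had the highest sum on each diet, *SLC14A1* was at its LC maximum on LC and at its overall minimum on HC. The part of red blood cells in the *SLC14A1* values was not tested. In bulk papillae, fewer cells of a type and less RNA per cell cannot be told apart.

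*AQP1* (NM_174702), the water channel of endothelium and red blood cells, had LC signals of 11.98, 11.42, 11.65 and 11.70 in cows 1 to 4 and HC signals of 11.79, 12.01, 11.86 and 11.59. It was higher on HC by 0.59 in cow 2 and 0.21 in cow 3, and the difference was -0.19 in cow 1 and -0.11 in cow 4. The 2 groups overlapped over most of their range.

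The *AQP1* means were 11.69 ± 0.23 (SD, n = 4) on LC and 11.81 ± 0.17 (SD, n = 4) on HC. The log2 fold change was 0.13 (SE 0.15, 95% interval -0.25 to 0.50; limma, unadjusted p = 0.446; exact permutation test, p = 0.429). It was -0.016 once LC in cow 2 was left out and 0.27 once LC in cow 1 was, and neither passed the thresholds. The interval allows for an increase of up to 1.41-fold.

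All 10 endothelial markers with a probe, of 15 listed, were well above background on all 8 arrays. Their log2 fold changes were positive in 10 of 10, with a median of 0.11, and 0 of 10 had an unadjusted p under 0.05. The log2 of their summed signals was 13.52, 13.55, 13.60 and 13.41 on LC and 13.52, 13.61, 13.71 and 13.72 on HC in cows 1 to 4. This sum was higher on HC in every cow, though hardly so in cow 1, while *AQP1* was higher in 2 of 4. The brightest of the 10 markers, *PLVAP*, had a mean log2 signal of 12.92. Positive log2 fold changes were also common in other marker lists. They were found in 10 of 11 markers of fibroblasts and smooth muscle, 7 of 9 of leukocytes and 4 of 5 of adipocytes. In red blood cells they were 4 of 6 and in squamous epithelium 7 of 11. The part of endothelium in the *AQP1* values was not tested.

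**Figure D3:**
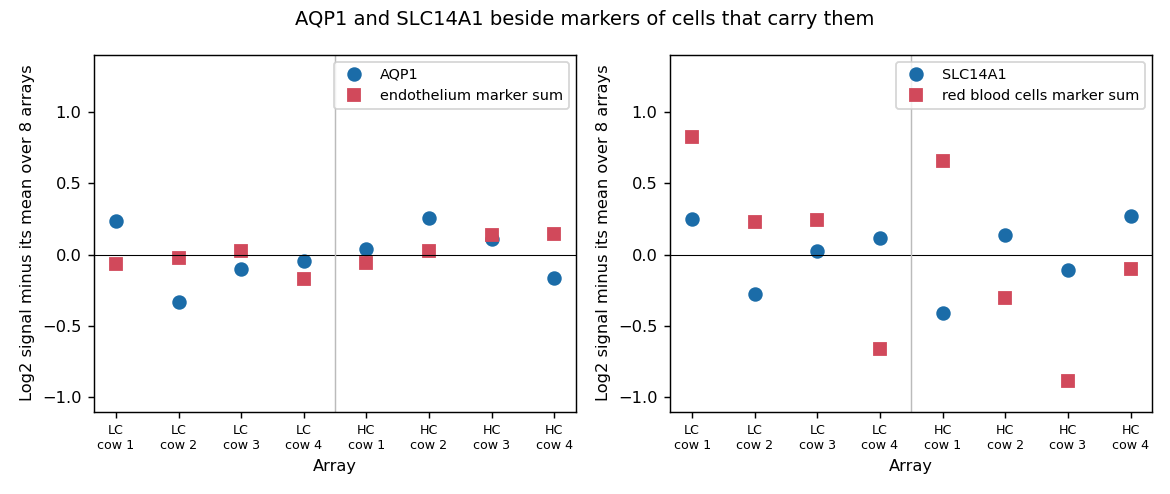
Log2 signal minus its mean over the 8 arrays (vertical axis) for each array (horizontal axis, LC left and HC right of the grey line). The left panel shows *AQP1* and the summed signal of 10 endothelial markers, and the right panel *SLC14A1* and the sum of the 3 red blood cell markers measured on all arrays. The red blood cell sum, which is close to the signal of *HBA* alone, spans more (11.63 to 13.34) than either gene. The order of the arrays differs between gene and markers, and a relation between them was not tested.

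The aquaglyceroporin gene *AQP3* (NM_001079794) is typical of the basal layers of squamous epithelia. Its LC signals were 16.01, 15.80, 15.37 and 15.61 in cows 1 to 4, and its HC signals 15.87, 15.83, 15.53 and 15.92. Cow 3 had the lowest signal on both diets and cow 4 the largest difference, 0.30 higher on HC. In cows 2 and 3 the difference was 0.03 and 0.16, and in cow 1 it was -0.14.

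The *AQP3* means were 15.70 ± 0.27 (SD, n = 4) on LC and 15.79 ± 0.17 (SD, n = 4) on HC. The log2 fold change was 0.09 (SE 0.13, 95% interval -0.22 to 0.40; limma, unadjusted p = 0.511; exact permutation test, p = 0.629). It was -0.0075 once HC in cow 4 was left out. *AQP7*, the other aquaglyceroporin chosen, is the neighbouring coding gene of *AQP3* in the reference annotation and had no matched probe.

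Within the periods the diets were compared between different cows. The HC minus LC difference of *AQP3* was -0.18 in period 1 and 0.36 in period 2. That of *ATP1B3* was 0.01 and -0.18, that of *FXYD3* 0.01 and 0.04, that of *SLC14A1* 0.09 and -0.21 and that of *AQP1* 0.03 and 0.22. Because of the crossover, the contrast between these values is also that of cows 1 and 2 against cows 3 and 4, tested as the interaction of diet and period.

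For *AQP3* the mean signal was 15.88 in cows 1 and 2 and 15.61 in cows 3 and 4, a difference of 0.27 (SE 0.13) with an unadjusted p of 0.077 from limma for the interaction. When the 2 arrays of each cow were averaged first, limma gave an unadjusted p of 0.160 and an adjusted p of 0.824. In the other 4 genes the cow pairs differed by -0.15 to 0.10, with unadjusted p values of 0.331 to 0.836 in limma. Period 2 minus period 1 gave log2 fold changes of -0.15 to 0.08 in the 5 genes, with unadjusted p values of 0.294 to 0.731 in limma. Past both thresholds were 0 of 5 for period, against 3.86% of all probes and 1.95% of the 16030 on all 8 arrays, and 0 of 5 for the interaction, against 2.93% and 2.03%. At an unadjusted p under 0.05 alone the interaction held 10.2% of the 16030. With normexp, *ATP1B3* reached an unadjusted limma p of 0.0142 for the interaction, at -0.14, with the 2 arrays of each cow counted separately. With the arrays of each cow averaged first, in the main setting, limma gave *ATP1B3* an unadjusted p of 0.422.

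For the other genes of sodium, water and urea transport, the counts of differences were near the shares of all probes. Of 92 genes listed around the 7, 42 had a named probe, of which 31 passed the background test on every array and 5 on none. Past both thresholds for diet were 0 of 42 in limma, beside 0.922% of all probes, and 2 of 42 had an unadjusted p under 0.05, beside 3.65%. Without moderation of the variance, the methods' general linear model gave 0 of 42 with an unadjusted p under 0.05, against 4.15% of all probes. Limma with cow as a block gave 5 of 42, against 5.87% of all probes. They were *SCNN1A*, *SCNN1B*, *KCNJ16*, *ASS1* and *MIP*, each with the same sign in 4 of 4 cows and an adjusted p of 0.843. *KCNJ16* hardly differed in cow 4, at -0.003. The block model also fitted period. A small p in it rests on differences that are alike between the cows fed in the same order. The shared sign is read from the same differences and adds no separate support. The median log2 fold change of the 42 was -0.03, and 19 were positive.

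Of 15 other pump subunit and FXYD genes, 8 had a probe, 4 with a positive and 4 with a negative log2 fold change. *FXYD2*, the gamma subunit of the renal pump, had the smallest p of this list, with signals of 3.69, 3.38, 4.24 and 3.60 on LC and 3.05, 3.23, 3.37 and 3.51 on HC in cows 1 to 4.

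The *FXYD2* signal was lower on HC in 4 of 4 cows, and 3 of the HC arrays were well above background. Its log2 fold change was -0.44 (SE 0.17; limma, unadjusted p = 0.0395 and adjusted p = 1.00; exact permutation test, p = 0.0571). With cow as a block the unadjusted limma p was 0.0629. The change is 1.35-fold and short of the fold threshold, which it passed only without the LC array of cow 4, at -0.60. Among 5 genes with a probe for pump trafficking and its hormonal control, 4 of them well above background on every array, 0 had an unadjusted p under 0.05. *SGK1*, the aldosterone-induced kinase that keeps sodium channels and pumps at the membrane, had a log2 fold change of -0.10 (SE 0.13), and *SGK3*, with the smallest p of the list, 0.11 (SE 0.09).

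Of 29 genes for sodium entry and potassium recycling, 13 had a probe and 0 had an unadjusted p under 0.05 in limma without the cow block, 5 with a positive and 8 with a negative log2 fold change. With the block, 3 of the 13 had. *SCNN1A*, the alpha subunit of the epithelial sodium channel, had signals of 10.99, 11.40, 10.80 and 11.21 on LC and 11.48, 11.62, 11.15 and 11.30 on HC in cows 1 to 4. HC exceeded LC in 4 of 4 cows, by 0.10 to 0.49, although the groups overlapped. Its log2 fold change was 0.29 (SE 0.14; limma, unadjusted p = 0.0887; exact permutation test, p = 0.143). With cow as a block the SE was 0.10 and the unadjusted limma p 0.0421. The beta subunit gene of the same channel, *SCNN1B*, was dim, well above background on 2 LC and 3 HC arrays, with signals of 3.69, 2.08, 0.34 and 3.73 on LC and 4.40, 3.04, 0.80 and 3.86 on HC in cows 1 to 4. Its cows differed far more than its diets, and HC exceeded LC within each cow. The *SCNN1B* log2 fold change was 0.56, with an SE of 1.01 and an unadjusted limma p of 0.596 without the block, and an SE of 0.11 and an unadjusted limma p of 0.00473 with it, and stayed under 1.5-fold. The potassium channel gene *KCNJ16*, well above background on 4 of the 8 arrays, had -0.49. Its SE was 0.38 without the block (limma, unadjusted p = 0.244) and 0.10 with it (limma, unadjusted p = 0.00736). HC minus LC was -0.71, -0.94, -0.32 and -0.003 in cows 1 to 4, so cow 4 hardly differed. The dimmer second probe of *KCNJ16*, well above background on 0 arrays, had -0.39 (limma without the block, unadjusted p = 0.521). Among the 16030 probes that passed the background test on all 8 arrays, 11.3% moved the same way in all 4 cows. *SCNN1A* is among these probes. *SCNN1B*, *KCNJ16*, *FXYD2* and *MIP* are not, and no such share was computed with dimmer probes included.

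Of 11 other aquaporins, 4 had a probe. *AQP5*, known from glands, had a log2 signal of 15.35 ± 0.24 (SD, n = 4) on LC and 15.41 ± 0.35 (SD, n = 4) on HC, and *AQP2*, the vasopressin-regulated water channel of the kidney, 8.11 ± 0.21 (SD, n = 4) and 8.02 ± 0.23 (SD, n = 4). *AQP4* was well above background on no array. *MIP*, the aquaporin of the eye lens, had dim signals of 3.07, 3.08, 3.49 and 3.30 on LC, where 3 arrays were well above background, and 3.56, 3.47, 4.35 and 3.52 on HC in cows 1 to 4. The *MIP* log2 fold change was 0.49 (SE 0.19; limma, unadjusted p = 0.0379 and adjusted p = 1.00; exact permutation test, p = 0.0571), and only without the HC array of cow 4 did it pass both thresholds, at 0.70.

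Of 12 genes for urea and ammonia handling, 9 had a probe, 7 with a negative log2 fold change, and 0 had an unadjusted p under 0.05 in limma. *SLC14A2*, the renal urea transporter gene next to *SLC14A1* in the reference annotation, had 4.41 ± 0.23 (SD, n = 4) on LC and 4.20 ± 0.14 (SD, n = 4) on HC, a log2 fold change of -0.21 (SE 0.13). *ASS1*, an enzyme of the urea cycle, had signals of 11.11, 10.80, 10.82 and 10.36 on LC and 10.68, 10.17, 10.66 and 10.06 on HC in cows 1 to 4, lower on HC in 4 of 4 cows. Its log2 fold change was -0.38 (SE 0.21; limma, unadjusted p = 0.112; exact permutation test, p = 0.143), and with cow as a block the unadjusted limma p was 0.0113. Of 8 genes for the use of glycerol, 3 had a probe, and the lipase gene *LIPE*, with the smallest p, had a log2 fold change of -0.31 (SE 0.21).

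**Figure D4:**
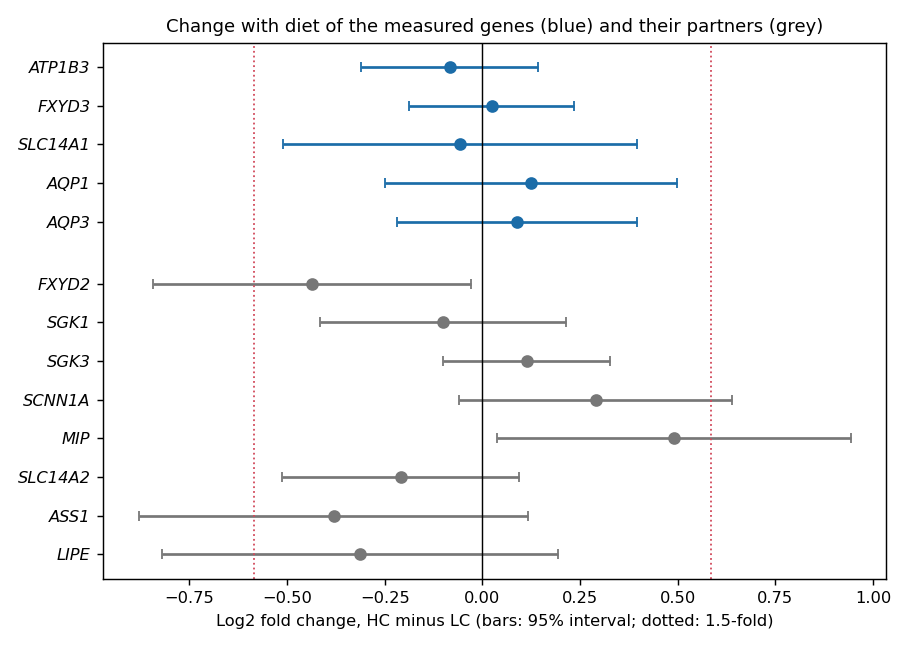
Log2 fold change, HC minus LC (horizontal axis), of the 5 measured genes (blue) and 8 partners from the surrounding lists (grey), with 95% intervals from limma and dotted lines at 1.5-fold. The blue intervals all cross 0 and stay between the dotted lines, while those of *FXYD2* and *MIP* leave 0 out and reach past 1.5-fold. Both are dim and are shown because each had the smallest p for diet in its list.

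The 5 genes did not share 1 pattern across the arrays. Over the 8 arrays, which came from 4 cows and are not independent, Pearson's r between pairs of the 5 genes lay between -0.608, for *ATP1B3* with *AQP3*, and 0.298, for *SLC14A1* with *AQP1*. For each gene, the most similar of 6468 other genes measured on all 8 arrays were sought by the same r, and the highest of so many are large by selection. Among the 3 most similar were *ALOX5* (r = 0.966), *FAM118B* (0.962) and *GOLGA7* (0.941) for *ATP1B3*, and *ENO3* (0.986), *HSPB6* (0.945) and *MYOC* (0.928) for *FXYD3*. For *SLC14A1* they included *LOXL3* (0.902) and *MSN* (0.900), for *AQP1* *TUBGCP5* (0.929) and *ARPC5* (0.898), and for *AQP3* *BARD1* (0.969), *EID1* (0.965) and *EMILIN2* (0.960).

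**Figure D5:**
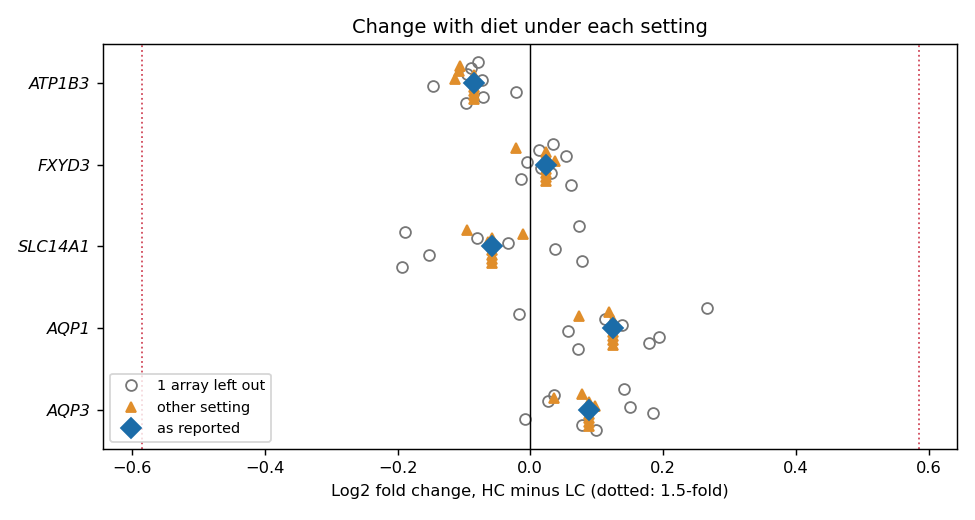
Log2 fold change, HC minus LC (horizontal axis), of the 5 measured genes as reported (blue diamonds), with 1 array left out (open circles) and under the other settings (orange triangles). Dotted lines mark 1.5-fold. Every point lies between -0.19 and 0.27, and *ATP1B3* alone keeps its sign throughout.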

How the data were processed

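Per the file headers, the authors deposited for each array the output of Agilent Feature Extraction 10.7.3.1, with a background-subtracted intensity per spot, not normalized across arrays. A table of quantile-normalized log2 values was deposited too, with column medians of 6.80, and was used only as an alternative. Control spots and 0 to 13 outlier spots per array were left out, log2 intensities were quantile-normalized (limma 3.58.1 in R 4.3.3) and then averaged over each probe's spots. Per array, 76.9 to 81.2% of probes were well above background (on both spots), which sets the depth, and the number of arrays limits the precision. Probes were named by RefSeq accession (ARS-UCD2.0): 8297 of 10176 probes with an accession were. No positions or sequences are given.

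The model in limma, without trend, had diet, period and their interaction, as in the methods, with 4 residual and 2.26 prior degrees of freedom. Tests on single genes were exact permutations (scipy 1.17.1). The first was tested on simulated data and the second on constructed values. Alternatives changed the normalization, background (normexp, offset 50, on median spot signals), dim-probe filter, source of values, model, probe choice and arrays. Genes named were the 7, any listed gene past both thresholds, the smallest p for diet in each list, preset partners and the 3 most similar genes. *AQP2*, *AQP4*, *AQP5*, *SCNN1B* and *KCNJ16* were added after their values were seen, and some genes that the rule names are not reported here. The members and lists were chosen with earlier results of these data known.

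The labels pair the arrays by cow. Deviations from the diet mean, compared between both arrays of a cow, had an r of 0.285, 0.298, 0.467 and 0.113 in cows 1 to 4 across 16030 probes, against -0.237 to 0.185 between different cows.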

Additional observations from a re-analysis of the deposited data

Results flagged for a closer look

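Among 28 groups of 4 arrays checked for a value far from the others (14 named genes on each diet), 2 had one, and chance alone gives this in about 5% of groups. Both were the HC array of cow 3. For *ATP1B3* this array had a log2 signal of 15.96 and the other HC arrays 15.66 to 15.71, so that the gap made up 0.83 of the range. For *MIP* it had 4.35 and the other HC arrays 3.47 to 3.56, a gap of 0.903 of the range.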

How the results depend on the processing

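The log2 fold changes of the 5 genes for diet were computed under 17 other settings, 8 of which left out 1 array each. No value of the 85 passed both thresholds. The sign was kept in 77 and changed in 8, 7 of them on leaving out an array. As each array was left out, *ATP1B3* ranged from -0.15 to -0.02, *FXYD3* from -0.014 to 0.062, *SLC14A1* from -0.19 to 0.078, *AQP1* from -0.016 to 0.27 and *AQP3* from -0.0075 to 0.18. With 75th percentile normalization *FXYD3* was at -0.021, and its contrast of cows 1 and 2 with cows 3 and 4 at -0.029. The cause was not tested. With cow as a block (replicate block) and period, the 5 log2 fold changes stayed as they were, 0 of 5 genes were called, and the lists kept a count of 0. With the block the SE was 0.10 for *ATP1B3*, 0.08 for *FXYD3*, 0.20 for *SLC14A1*, 0.16 for *AQP1* and 0.09 for *AQP3*. The unadjusted limma p of the 5 then lay between 0.371 (*AQP3*) and 0.7915 (*SLC14A1*). Over all probes, calls for diet went from 198 to 276 and an unadjusted p under 0.05 from 784 to 1260. Each gene had 1 probe, so averaging probes could not change the values.

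The number of genes called in the surrounding lists was 0 under every setting with all 8 arrays, and ranged from 0 to 3 with 1 array left out. Without the LC array of cow 4 they were *FXYD2*, *ARG2* and *OTC* (3 genes), without the HC array of cow 4 *MIP*, without that of cow 1 *KCNK2*, and without that of cow 2 *KCNK2* in the opposite direction and *SCNN1G*. The number of arrays, 4 per diet, sets the width of the intervals given for the 5 genes. Over all probes, calls for diet ranged from 8 with normexp to 415 with the deposited table, against 198, and 5 probes of that table had an adjusted p under 0.05, against 0.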
